A study of Drosophila melanogaster with 9 samples.

Results

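The genes described here encode the proteins of the cytosolic ribosome of Drosophila melanogaster, together with their duplicated copies. They were chosen by symbol alone, as the rows whose name starts with RpL or RpS followed by a digit or by P, which gave 92 of the 16837 genes in the files, 54 of the large subunit (RpL) and 38 of the small subunit (RpS). Of these, 69 have a plain symbol and are called main genes below, and 23 carry an a or b suffix (18) or end in -like (5) and are called paralogues. A suffix does not mark the minor copy: RpS19a, RpL37a and RpS28b, for example, are the abundant copies of their proteins.

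RNA was taken, per the labels, from heads of virgin females aged 10 days, in 3 genotypes with 3 libraries each. The first group is labelled wild type (Chd1[WT/WT]), the second is Chd1-deficient (Chd1[-/-]), and in the third a UAS-Chd1 transgene is driven by elav-Gal4, a driver active in neurons (elav>Chd1 below). Chd1 is a chromodomain helicase that remodels nucleosomes. The labels call the elav>Chd1 group rescued but do not say whether these flies carry the deletion, and the series text lists a Chd1-rescued genotype and no wild type, so the reference group may carry a restored copy of Chd1. The driver acts in neurons, so a transgene in other cells of the sample is not implied by the label. Nothing in the labels tells whether replicate libraries were made from different flies. The p-values below therefore cover only the spread among the libraries, which may be technical.

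The libraries were first set against their labels. Chd1 itself stood at 92.7 to 108.5 TPM in wild-type, 18.2 to 20.2 TPM in Chd1-deficient and at 63.1 to 63.7 TPM in elav>Chd1 libraries. TPM is a level corrected for transcript length and scaled to a fixed library total, so sequencing depth is unknown and a rise in 1 set of genes lowers the rest. All 16 ovary and eggshell markers were above 1 TPM on average in every group, and they summed to 22777 to 28199 TPM in the wild-type libraries, 28049.9 to 29985 TPM in the Chd1-deficient ones and 29962 to 32438 TPM in elav>Chd1 libraries. A sum is carried by its most abundant genes. Of the 16 markers, 4 were called higher and 11 lower in the Chd1-deficient against the wild-type libraries (limma as described below). Their median log2 fold change was -0.57, and over all tested genes 42.9% were called higher and 46.0% lower. The 10 neuron markers summed to 62.7 to 70.3, 213.2 to 225.2 and 98.3 to 100.8 TPM in the same order. The 14 testis and male tract markers summed to 28.2 to 32.7, 289.6 to 316.1 and 9.29 to 10.05 TPM, with aly at 0 in elav>Chd1 libraries. The samples therefore held RNA that the head and female labels do not account for, and no level below can be assigned to head cells. In such bulk samples a lower number of cells of a type and less RNA per cell cannot be told apart.

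A ribosome is built from a small subunit, which reads the messenger RNA, and a large subunit, which joins the amino acids, and each protein is needed in about 1 copy per particle. In flies, loss of 1 copy of many of these genes gives the Minute phenotype of slow development and short, thin bristles. Their messenger RNAs are short, abundant and similar in level, and several of the genes carry small nucleolar RNAs (snoRNAs), guides of ribosomal RNA modification, inside their introns. Duplicated copies of ribosomal protein genes are often used in the germline.

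The ribosomal protein genes were among the most abundant transcripts of every genotype. They made up 70 of the 100 genes with the highest mean level, and 79 of the 92 averaged at least 1000 TPM. In the main genes the highest mean level, that of RpL41, was 10.7 times the lowest, that of RpL22, and the median was 2971 TPM. RpL41, which encodes the smallest ribosomal protein, was followed by RpL28 and RpS29 of the large and the small subunit and by RpL27A. At the low end stood RpL39, RpL15, RpL38 and RpL22, all of the large subunit, with group means between 1066 TPM (RpL22, wild type) and 1857 TPM (RpL38, wild type).

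**Figure D1:**
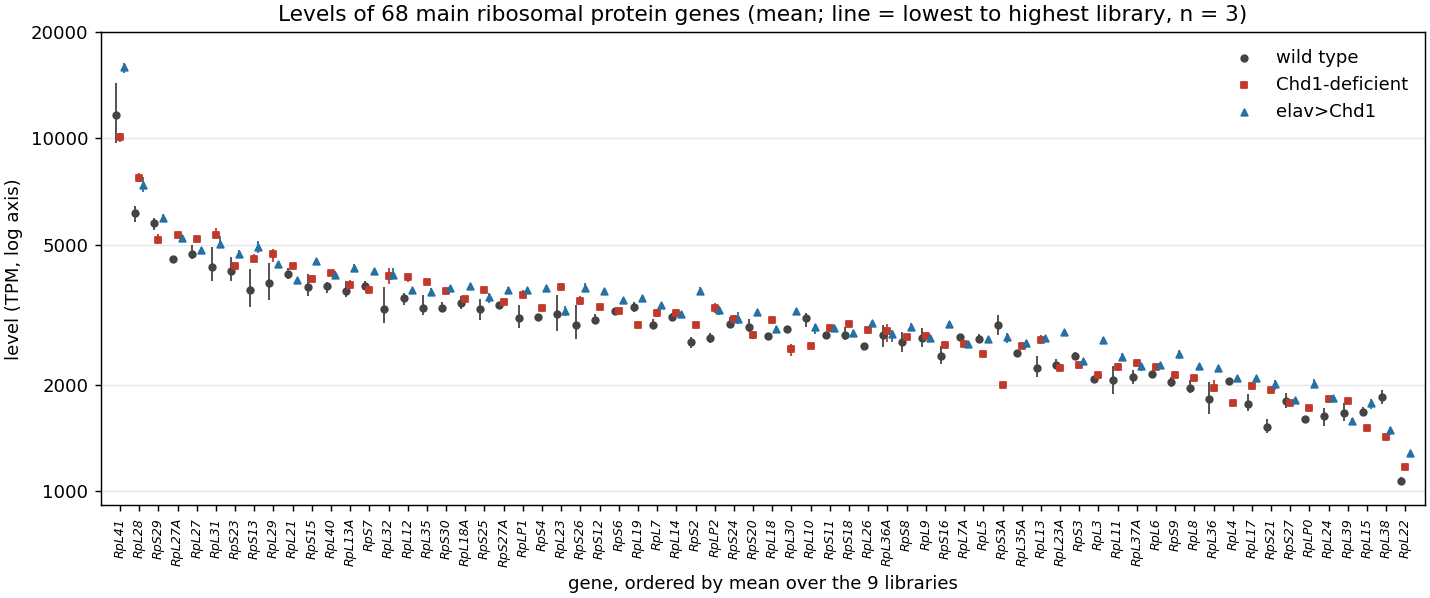
Level of 68 of the 69 main ribosomal protein genes in TPM on a log axis, ordered by the mean over 9 libraries; symbols are group means and lines run from the lowest to the highest of 3 libraries. RpL41 stands apart at the top, most genes lie within a narrow band around the median of 2971 TPM, and the wild-type lines are the longest.

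The main genes share features that their symbols did not select. The median length of the main genes' transcripts was 807 bases, against 1791 bases over the tested genes. A snoRNA gene lay within 28 of the 92 genes (30.4%), 26 of them main genes, and within 152 of the 11076 tested genes with coordinates (1.37%). The genes are spread over the genome, with 19 on chromosome arm 2L, 21 on 2R, 14 on 3L, 23 on 3R, 14 on X and RpS3A alone on chromosome 4.

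Summed over all 92 genes, the ribosomal protein pool was largest in elav>Chd1 libraries. It reached 230695, 232528 and 251822 TPM in the wild-type libraries, 258362, 250993 and 253332 TPM in the Chd1-deficient libraries and 269474, 267331 and 268823 TPM in elav>Chd1 libraries. This was 23.1% to 25.2%, 25.1% to 25.8% and 26.7% to 27.0% of a library. The elav>Chd1 libraries lay above all others, whereas the third wild-type library lay above the second Chd1-deficient one, so these groups overlapped. Both readings depend in part on RpL41, the most abundant gene. Without it the sums were 221006 to 237494, 241243 to 247965 and 250925 to 254143 TPM in the same order of groups, with no overlap. The paralogues alone summed to 26381 to 28215 TPM in wild type, below the 30516 to 31269 TPM of the Chd1-deficient and the 29991 to 30860 TPM of the elav>Chd1 libraries. No test was made on these sums. The ovary and eggshell markers given above were also lowest in the first and second wild-type libraries; their part in the result was not tested.

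The third wild-type library stood apart from the other two. Relative to the first, 57 of the 69 main genes were higher in it, by a median of 0.09 and up to 0.56 on the log2 scale, and 13 differed upwards by at least 0.2. No other pair of libraries of a group, apart from this library against the second (9 genes), had a main gene that far up. The median coefficient of variation of the main genes was 4.51% in wild type, 1.72% in the Chd1-deficient and 1.84% in the elav>Chd1 group. The log2 ratio of the third to the first wild-type library ran against transcript length across genes, with Spearman's rho of -0.35 in the 69 main genes and -0.37 in 11076 tested genes; these genes share 2 libraries and are not replicates. Group comparisons ran against length as well: between log2 fold change and length, rho was -0.25 in main genes and -0.26 in all genes for Chd1-deficient against wild type, and -0.45 and -0.20 against elav>Chd1. For elav>Chd1 against wild type it was 0.03 and -0.08. The part of length in the results was not tested. Without the third wild-type library, all 65 ribosomal protein genes called between Chd1-deficient and wild type kept their call and direction, as did 63 of the 64 called between elav>Chd1 and wild type, all but RpL15, and 11 of 14 gene pairs passed as before.

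**Figure D2:**
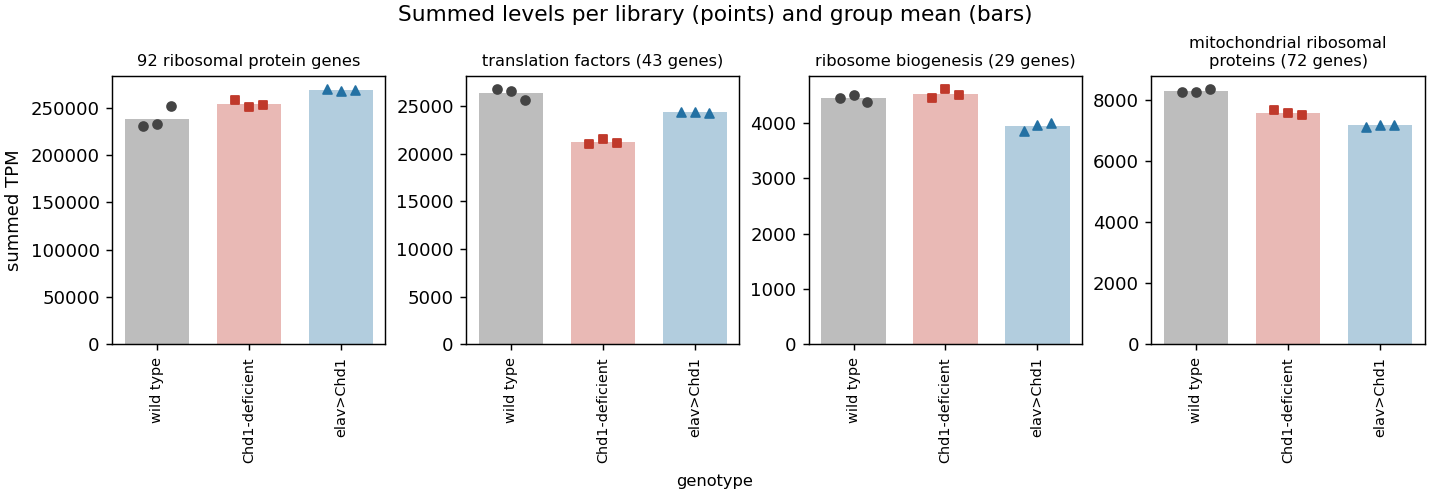
Summed level in TPM per library (points) and group mean (bars, from 0) for the 92 ribosomal protein genes, translation factors, ribosome biogenesis factors and mitochondrial ribosomal proteins. The ribosomal protein pool is highest in elav>Chd1 libraries (267331 to 269474 TPM), while the translation factors are highest in wild type (25686 to 26768 TPM).

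Fold changes were tested with limma on log2(TPM + 0.5) across all genes that reached 1 TPM in at least 3 libraries, and a gene was called at a Benjamini-Hochberg adjusted p under 0.05. Of the 92 genes 88 were tested, all 69 main genes and 19 paralogues. RpL22-like, RpS10a, RpS28a and RpS28-like were too low. Of the comparisons below, the wild-type group enters the first and the middle one and the Chd1-deficient group the first and the last. The comparisons are therefore not independent.

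How ribosomal protein transcripts differ without Chd1 is asked by setting the Chd1-deficient against the wild-type libraries. Most main genes were slightly higher in the Chd1-deficient libraries, and a small set led by RpS3A and RpL38 was lower. Among the 88 that could be tested, 53 were called higher and 12 lower, among them 38 and 11 of the 69 main genes. The shares called over all 11094 tested genes were 42.9% higher and 46.0% lower. The median log2 fold change was 0.11 for the tested ribosomal protein genes and -0.05 for all genes. Scaling to the summed ribosomal protein level took the former to 0.02. That scaling sets the pool equal by construction, so it cannot tell whether the pool differs between genotypes. Leaving out 1 library at a time gave 45 to 63 higher and 10 to 13 lower. The highest count came without the third wild-type library. Without the first or second wild-type or the first Chd1-deficient library, 30 of the 69 main genes were called higher, a share close to the 42.6%, 42.3% and 42.0% of all genes called higher in those fits. The changes were small: 65 of 69 main genes lay within 25% of the wild-type mean. Over all genes 36.1% were called higher and 23.4% lower by at least 0.5 on the log2 scale, which 4 and 2 of the 88 reached. The 4 were RpS14a and the scarce copies RpL10Aa, RpL37b and RpS19b, and the 2 were RpS3A and RpS15Ab. Those scarce copies passed the filter on low values through their Chd1-deficient libraries; without them 50 of 85 genes were called higher and 12 lower.

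RpS3A, a small subunit protein and a Minute gene on chromosome 4 (65225 to 67207, minus strand, in the BDGP6 assembly), had the largest fall. Its level was 3154, 2966 and 2782 TPM in the wild-type libraries, 1964, 2029 and 2026 TPM in the Chd1-deficient group and 2637, 2779 and 2811 TPM in elav>Chd1 libraries. Every Chd1-deficient library lay below every other library, and wild type and elav>Chd1 overlapped. RpS3A fell by 0.56 on the log2 scale against wild type (SE 0.04, limma adjusted p = 6.3e-07). A snoRNA gene lies within RpS3A.

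RpL38, of the large subunit, stood at 1935, 1868 and 1767 TPM in wild type, at 1411, 1417 and 1436 TPM in Chd1-deficient and at 1444, 1523 and 1504 TPM in elav>Chd1 libraries. Here both other genotypes lay below wild type without overlap. In the Chd1-deficient libraries RpL38 fell by 0.38 (SE 0.04, limma adjusted p = 2.1e-06). In elav>Chd1 it fell by 0.32 (SE 0.04, limma adjusted p = 2.6e-05). RpL10, which in yeast joins the large subunit late in its assembly, stood at 2931 to 3207 TPM in wild type against 2551 to 2605 TPM in the Chd1-deficient group, a log2 fold change of -0.26 (limma adjusted p = 7e-05). RpL4, whose protein lines the exit tunnel of the nascent chain, stood at 2049 ± 20.5 TPM in wild type and fell to 1781 ± 21.3 TPM (SD, n = 3), a log2 fold change of -0.20 (limma adjusted p = 1.7e-05). RpL30, RpS29 and RpL15 were called lower by 0.15 to 0.18 as well.

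Among the genes called higher, RpS21, of the small subunit, stood at 1466, 1494 and 1607 TPM against 1965, 1913 and 1930 TPM, a rise of 0.35 (SE 0.04, limma adjusted p = 8.9e-06). RpL28, of the large subunit, stood at 6135 ± 321 TPM in wild type and rose by 0.33 to 7708 ± 249.5 TPM (limma adjusted p = 7.1e-05). All 3 stalk genes, whose proteins form the lateral arm that binds elongation factors, were higher: RpLP2 by 0.28, RpLP1 by 0.22 and RpLP0 by 0.10.

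Read against the same 42.9% higher and 46.0% lower over all genes, 27 of 44 main large subunit genes were called higher and 8 lower, and 11 of 25 main small subunit genes higher and 3 lower. Of the genes that join a ribosomal protein to ubiquitin or a ubiquitin-like domain, RpS30 (0.16) and RpL40 (0.12) rose, while RpS27A stood at 3372 ± 29.6 in wild type and 3435 ± 45.1 TPM in the Chd1-deficient libraries (limma adjusted p = 0.35). Of the 26 main genes with a snoRNA gene inside, 8 were called higher and 7 lower, with a median of 0.04. Of the 43 without one, 30 were called higher and 4 lower, with a median of 0.12. Without the third wild-type library, 13 of the 26 and 35 of the 43 were called higher, with medians of 0.07 and 0.15. Over all genes 42.5% were called higher in that fit. On the X chromosome 9 of 14 genes were called higher and 1 lower, and on the autosomes 44 of 74 higher and 11 lower; these divisions were not tested against each other.

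**Figure D3:**
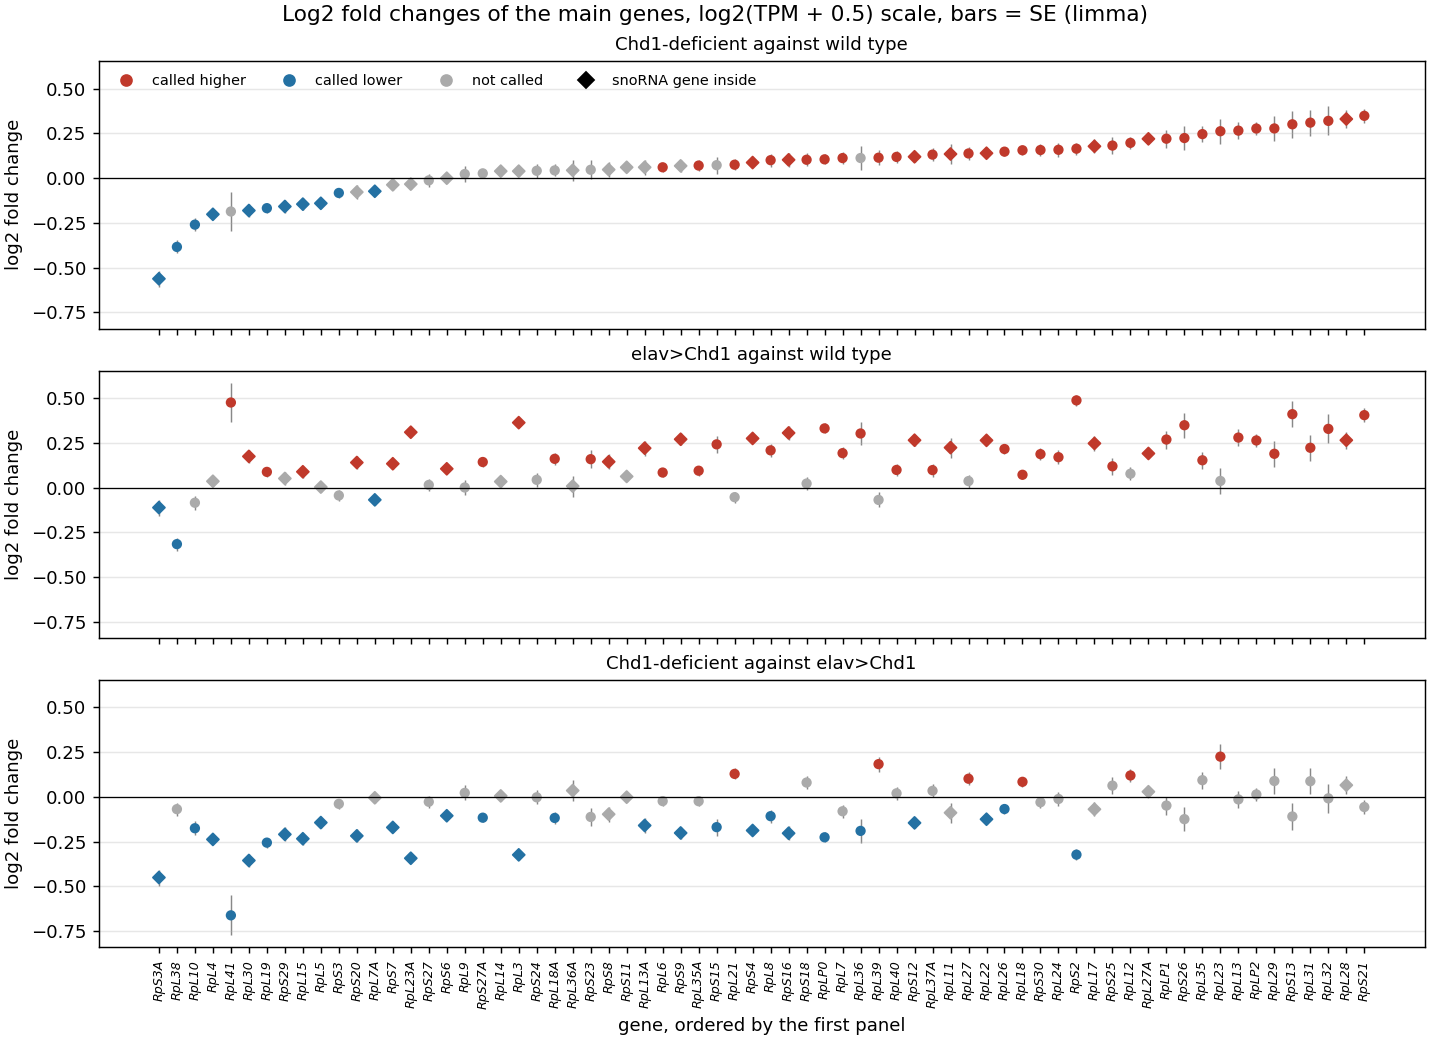
Log2 fold change on the log2(TPM + 0.5) scale of 68 of the 69 main genes in 3 comparisons, in 1 gene order; bars are limma standard errors, red and blue mark genes called higher and lower, grey marks genes not called and diamonds mark genes with a snoRNA gene inside. Most values are within 0.5 of 0; RpS3A lies lowest against wild type (-0.56) and RpL41 lowest against elav>Chd1 (-0.66). Scaling to the summed ribosomal protein level sets the pool equal by construction. Under it the median of all 88 genes turned from 0.14 to -0.03 for elav>Chd1 against wild type. For Chd1-deficient against elav>Chd1 it turned from -0.03 to 0.05.

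In the elav>Chd1 libraries most ribosomal protein genes were higher than in wild type, with RpS2 and RpL41 at the top. Of 88 genes 58 were called higher and 6 lower, 49 and 3 of them main genes, against 30.6% higher and 47.3% lower over all genes. The median log2 fold change was 0.14, against -0.15 for all genes. It turned to -0.03 when libraries were scaled to the summed ribosomal protein level, which sets the pool equal by construction. Leaving out 1 library at a time gave 45 higher (without the second wild-type library) to 64 (without the third), and 4 to 8 lower. No gene of the 88 was called with a log2 fold change of at least 0.5 in size, against 21.6% higher and 9.19% lower over all genes, and 62 of 69 main genes lay within 25% of the wild-type mean. Without the third wild-type library 4 genes passed that size, RpL41 (0.63), RpS2 (0.51), RpS13 (0.51) and RpS14a (0.51).

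RpS2, at the entrance of the messenger RNA channel and known in flies from the ovary mutant string of pearls, stood at 2553, 2640.4 and 2733 TPM in wild type, 2975, 2894 and 3012 TPM in Chd1-deficient and at 3644, 3673 and 3789 TPM in elav>Chd1 libraries. The 3 groups did not overlap. RpS2 rose by 0.49 in elav>Chd1 against wild type (SE 0.03, limma adjusted p = 7.9e-07) and by 0.16 in the Chd1-deficient libraries (limma adjusted p = 6.6e-04).

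RpL41 stood at 9689, 10939.8 and 14328 TPM in wild type, 10397, 9749 and 10165 TPM in Chd1-deficient and at 15331, 16406 and 16212 TPM in elav>Chd1 libraries. The elav>Chd1 libraries were above all others, and the wild-type libraries were spread from below the Chd1-deficient range to near the elav>Chd1 range. RpL41 rose by 0.47 in elav>Chd1 against wild type (SE 0.11, limma adjusted p = 0.0026). Its transcript is among the shortest of the set, and it had the largest coefficient of variation of the main genes in wild type, 20.6%.

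RpS13 (log2 fold change 0.41), RpS21 (0.40), RpL3 of the peptidyl transferase centre (0.36), RpLP0 of the stalk (0.33) and RpL23A at the exit of the nascent chain (0.31) followed, each called by limma. RpL3 stood at 2051, 2080.5 and 2114 TPM in wild type against 2631, 2732 and 2667 TPM in elav>Chd1, while the Chd1-deficient libraries, at 2151, 2119.5 and 2145 TPM, lay just above wild type. RpL23A behaved alike, at 2240 to 2374 TPM in wild type, 2209.9 to 2267 TPM in Chd1-deficient and at 2820 to 2849 TPM in elav>Chd1 libraries. The other stalk genes rose by 0.27 (RpLP1) and 0.26 (RpLP2), and the ubiquitin fusion genes RpS30, RpS27A and RpL40 by 0.19, 0.14 and 0.10, of which RpS27A and RpL40 turned to -0.0307 and -0.0750 under scaling to the summed ribosomal protein level. Besides RpL38, the main genes called lower were RpL7A and RpS3A. RpS3A (log2 fold change -0.11, limma adjusted p = 0.04) missed the threshold in 12 of 18 alternatives and RpL7A (-0.07, limma adjusted p = 0.038) in 11 of 18, whereas RpL38 passed in all 18.

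Set directly against elav>Chd1, the ribosomal protein genes of the Chd1-deficient libraries were called lower in a share near that of all genes. Of 88 genes 31 were called lower and 15 higher, and of the 69 main genes 28 lower and 7 higher, against 33.7% lower and 34.7% higher over all genes. Their median was -0.03 and that of all genes -0.02, and the former turned to 0.05 under scaling to the summed ribosomal protein level. The number of main genes called higher rested on single libraries: it was 2 without the first Chd1-deficient library and 3 without the second elav>Chd1 library, and it was 1 with median-ratio scaling. RpL41 was lower by 0.66 (SE 0.11, limma adjusted p = 4e-04), RpS3A by 0.45, RpL30 by 0.36, RpL23A by 0.34 and RpL3 by 0.32. Called changes of at least 0.5 were made up of 3 rises and 1 fall, against 24.6% and 5.35% of all genes. The 3 rises were RpL10Aa, RpL37b and RpS19b, scarce copies that passed the filter on low values through their Chd1-deficient libraries. They carry no weight as a count, and without them 12 of 85 genes were called higher and 31 lower.

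RpL30, of the large subunit, stood at 2844 to 2930 TPM in wild type, 2418 to 2613 TPM in Chd1-deficient and at 3174 to 3287 TPM in elav>Chd1 libraries, with no overlap. It was called in opposite directions in the comparisons with wild type, -0.18 in the Chd1-deficient and 0.17 in elav>Chd1 libraries. RpL15 was lower by 0.15 in the Chd1-deficient and higher by 0.09 in elav>Chd1 libraries, the second with overlapping libraries (limma adjusted p = 0.03), not called without the third wild-type library (limma adjusted p = 0.063) and turned to -0.0851 by scaling to the summed ribosomal protein level. Among the 26 main genes with a snoRNA gene inside, 17 were called lower than in elav>Chd1 and 0 higher. Of the 43 others 11 were called lower and 7 higher. The medians were -0.15 and -0.02, and the difference was not tested. Over all genes 33.7% were called lower and 34.7% higher. Log2 fold change also ran against transcript length here (Spearman's rho -0.45 in main genes), and the part of length was not tested.

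RpL39, next to the exit of the nascent chain, was one of the few main genes called higher against elav>Chd1, where 1764 to 1820 TPM stood against 1566 to 1616 TPM and the log2 fold change was 0.18 (limma adjusted p = 0.0028). The annotated ends of RpL39 and RpL12 overlap by 8 bases on opposite strands, and RpL12, at 3926 to 4147 against 3671 to 3736 TPM, was called higher too (0.12).

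Related genes outside the symbol rule had similar levels. The gene sta, which encodes the small subunit protein RpSA, stood at 3378 ± 46.2 TPM in wild type, 3357 ± 19.6 TPM in Chd1-deficient and at 3716 ± 27.5 TPM in elav>Chd1 libraries (0.14 in elav>Chd1 against wild type, limma adjusted p = 4.4e-04). Rack1, a scaffold on the small subunit, stood at 2285 ± 13.7, 2091 ± 45.4 and 2740.1 ± 40.9 TPM. It was lower in the Chd1-deficient (-0.13) and higher in elav>Chd1 libraries (0.26) than in wild type, both called by limma.

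The paralogues fell into 3 sets by level. The most abundant 12 included RpS19a, RpL37a, RpS28b, RpS10b, RpL10Ab, RpS15Aa and both copies of RpL34 and RpS14, with none of the 12 below 601.9 TPM in any library. RpS15Ab, RpLP0-like, RpL7-like and RpL24-like stood between 61.8 and 625.5 TPM. The remaining 7 stayed under 5 TPM in every library, namely RpL10Aa, RpL22-like, RpL37b, RpS10a, RpS19b, RpS28a and RpS28-like. Of the 19 paralogues tested, 15 were called higher and 1 lower in the Chd1-deficient against the wild-type libraries, 8 higher and 3 lower against elav>Chd1, and in elav>Chd1 against wild type 9 higher and 3 lower. The shares over all genes, in the same order, were 42.9% and 46.0%, 34.7% and 33.7%, and 30.6% and 47.3%. Leaving out RpL10Aa, RpL37b and RpS19b, which passed the filter through their Chd1-deficient libraries, the counts of 16 were 12 and 1, 5 and 3, and 9 and 3.

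The 7 low copies, of which RpL22-like and RpS19b are known from the fly germline, were nearly absent outside the Chd1-deficient libraries. Their summed level was 1.17, 1.49 and 1.42 TPM in wild type, 8.66, 8.74 and 11.3 TPM in the Chd1-deficient group and 1.07, 1.51 and 1.55 TPM in elav>Chd1 libraries. RpL10Aa, a copy of RpL10Ab, stood at 0.214, 0.070 and 0.064 TPM in wild type, 2.02, 2.45 and 2.31 TPM in the Chd1-deficient libraries, and was listed at 0, 0 and 0.194 TPM in elav>Chd1. RpS19b stood at 0.819, 0.996 and 0.632 TPM, at 3.16, 2.59 and 3.38 TPM and at 0.946, 1.02 and 0.744 TPM in the same order. For both genes every Chd1-deficient library lay above all others.

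RpL37b was listed at 0, 0.209 and 0.192 TPM in wild type, measured 1.14, 1.07 and 1.92 TPM in the Chd1-deficient group and was listed at 0 in all elav>Chd1 libraries. RpL22-like, the copy of RpL22, stood at 0.079 to 0.134 TPM in wild type, 0.663 to 1.01 TPM in Chd1-deficient and at 0 to 0.126 TPM in elav>Chd1 libraries. RpS10a stood at 0 to 0.450, 0.721 to 1.43 and 0 to 0.237 TPM. These 3 genes also kept their Chd1-deficient libraries above all others. RpS28-like (0.247 to 1.47 TPM) and RpS28a (0 to 0.746 TPM in the Chd1-deficient libraries) were listed at 0 in every wild-type library, and for them the elav>Chd1 libraries overlapped the Chd1-deficient ones.

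Of these 7, only RpL10Aa, RpL37b and RpS19b passed the filter. RpL10Aa and RpL37b reached 1 TPM in the Chd1-deficient libraries alone and RpS19b in these and 1 other, so their being called carries no weight as a count. Their log2 fold changes against wild type were 2.17 (SE 0.16, limma adjusted p = 4.2e-07), 1.55 (SE 0.19, limma adjusted p = 1.8e-05) and 1.43 (SE 0.14, limma adjusted p = 3e-06), and against elav>Chd1 2.30, 1.88 and 1.33. The added 0.5 TPM understates changes at this level. With no filter, RpL22-like (1.14), RpS10a (1.17) and RpS28-like (1.07) were called higher against wild type and RpS28a was not (0.73, limma adjusted p = 0.062). In that fit 39.4% of all genes were called higher and 30.3% lower. Against elav>Chd1 RpL22-like (1.18) and RpS10a (1.21) were called higher, where 31.5% of all genes were higher and 21.5% lower. RpS28-like (0.68, limma adjusted p = 0.18) and RpS28a (0.73, limma adjusted p = 0.077) were not called there. The authors' deposited table of Chd1-deficient against wild type holds part of the genes and lists 6 of the 92. The share of all genes it lists was not determined, so this count carries no weight. Log2 fold changes there were 4.38 (RpL10Aa), 3.89 (RpS28-like), 3.42 (RpL37b), 3.12 (RpL22-like), 2.43 (RpS10a) and 1.99 (RpS19b). The table against elav>Chd1 lists the same genes except RpS28-like, at 5.13 (RpL10Aa), 5.27 (RpL37b), 3.31 (RpL22-like), 2.72 (RpS10a) and 1.77 (RpS19b). In the authors' deposited tables these genes have mean normalized counts of 2.36 (RpS28-like) to 26.9 (RpL10Aa), so each level rests on few reads. The testis and male tract markers were also highest in the Chd1-deficient group, at the levels given above. They summed to 28.2 to 32.7 TPM in wild type and 9.29 to 10.05 TPM in elav>Chd1. The low copies summed to 1.17 to 1.49 and 1.07 to 1.55 TPM in these groups. Most of that was RpS19b, at 0.632 to 0.996 and 0.744 to 1.02 TPM. All 14 testis and male tract markers were above 0 in at least 1 wild-type and 1 Chd1-deficient library, and 13 in at least 1 elav>Chd1 library. On average 9, 11 and 4 of the 14 reached 1 TPM in wild type, Chd1-deficient and elav>Chd1. Markers of muscle (10 of 10) and photoreceptors (10 of 10) were called higher in the Chd1-deficient against the wild-type libraries too. So were those of glia (7 of 7), fat body (9 of 9) and neurons (9 of 10). Over all genes 42.9% were called higher and 46.0% lower there. The part of all these markers in the result was not tested.

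**Figure D4:**
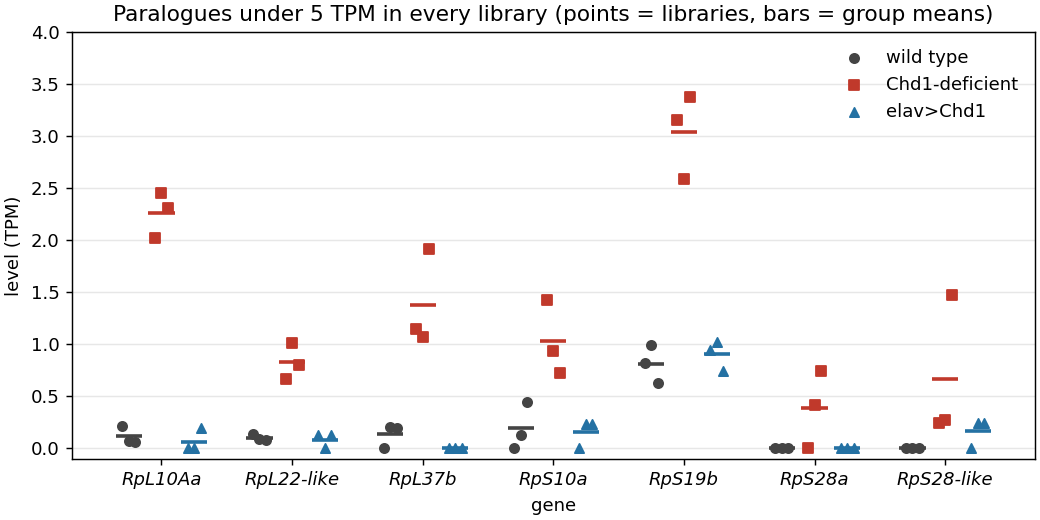
Level in TPM of the 7 paralogues that stayed under 5 TPM in every library; points are libraries and bars are group means of 3. The Chd1-deficient libraries lie above all others for RpL10Aa, RpL22-like, RpL37b, RpS10a and RpS19b, and overlap the elav>Chd1 libraries for RpS28a and RpS28-like.

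Whether the balance between copies differed between genotypes was tested for 14 pairs, each a and b pair and each -like gene with its namesake, by an exact permutation test over the 9 libraries on the log2 ratio of the copies. The smallest p that this design allows is 0.0036. In 11 of 14 pairs p was under 0.05, also after Benjamini-Hochberg adjustment over the pairs. How many pairs of other genes would pass was not tested. Of all tested genes limma called 88.9% for Chd1-deficient against wild type, 68.4% for Chd1-deficient against elav>Chd1 and 77.9% for elav>Chd1 against wild type. The count is therefore not read as particular to these pairs. A ratio within a library does not depend on its scaling where both copies stand far above the added 0.5 TPM. For the 7 low copies the added value is not small beside the level, so their ratios also follow the scaling and the partner. RpL37b was listed at 0 in all elav>Chd1 libraries, and its ratio there is the added value over RpL37a.

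RpS14a and RpS14b, tandem copies with near-identical products, showed the largest shift among the abundant pairs. They lie 220 bases apart on the X chromosome (7933742 to 7934677 and 7934898 to 7935792, plus strand, in the BDGP6 assembly). RpS14a stood at 1216, 1253 and 1417 TPM in wild type, 1928, 1852 and 1913 TPM in Chd1-deficient and at 1788, 1712 and 1759 TPM in elav>Chd1 libraries. RpS14b stood at 602 to 657 TPM, 605 to 646 TPM and 672 to 702 TPM in the same order. The share of RpS14b in the pair was 32.6% ± 1.08 in wild type, 24.7% ± 0.318 in the Chd1-deficient and 28.1% ± 0.447 in elav>Chd1 libraries (SD, n = 3; exact permutation p = 0.0036, adjusted p = 0.0071), and the 3 groups did not overlap. How reads common to both copies were divided is stated nowhere in the sources, so the split is uncertain. The summed level of the pair was 1922 ± 132.1, 2521 ± 59.3 and 2439 ± 46.9 TPM. It depends on that split as well, because TPM corrects for transcript length. In the annotation used here the transcripts are 877 bases for RpS14a and 594 bases for RpS14b.

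RpS15Ab, the minor copy of RpS15Aa, stood at 98.3, 89.8 and 92.3 TPM in wild type, 61.8, 66.4 and 65.3 TPM in Chd1-deficient and at 75.3, 79.6 and 77.5 TPM in elav>Chd1 libraries. It was the single paralogue called lower in the Chd1-deficient against the wild-type libraries (log2 fold change -0.53, SE 0.04, limma adjusted p = 9.4e-07). Its share of the pair fell from 3.46% ± 0.122 to 2.53% ± 0.052 and was 2.98% ± 0.077 in elav>Chd1 (exact permutation p = 0.0036). RpS15Aa itself stood at 2495 to 2722, 2440 to 2533 and 2517 to 2525 TPM and was called in no comparison.

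RpL34a and RpL34b rose together in the Chd1-deficient libraries. RpL34a went from 1020.2 ± 53.7 TPM in wild type to 1225 ± 32.6 TPM and stood at 983.5 ± 23.2 TPM in elav>Chd1, and RpL34b went from 1858 ± 118.6 to 2305 ± 45.0 TPM with 1963 ± 44.1 TPM in elav>Chd1. The share of RpL34a was 35.5%, 34.7% and 33.4% in wild type, Chd1-deficient and elav>Chd1 (exact permutation p = 0.0036), a shift of about 2 percentage points.

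The -like genes RpL24-like, RpL7-like and RpLP0-like correspond to yeast factors of large subunit assembly, and those matching RpL24-like and RpLP0-like hold the place of the mature protein there. All 3 held their lowest shares in elav>Chd1, without overlap with the other groups. RpLP0-like stood at 107.7, 101.6 and 98.0 TPM in wild type, 114.3, 120.8 and 114.8 TPM in Chd1-deficient and at 90.8, 93.1 and 95.4 TPM in elav>Chd1 libraries, while RpLP0 was highest in elav>Chd1. Its share of the pair was 6.01% ± 0.284, 6.34% ± 0.193 and 4.42% ± 0.209 (exact permutation p = 0.0071, adjusted p = 0.0125). RpL7-like held 7.48%, 6.88% and 6.06% of its pair (exact permutation p = 0.0036), and RpL24-like held 24.7%, 25.2% and 22.2% (exact permutation p = 0.0143). Relative to elav>Chd1, Chd1-deficient libraries were higher in RpLP0-like by 0.32, in RpL24-like by 0.23 and in RpL7-like by 0.12, each called by limma.

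**Figure D5:**
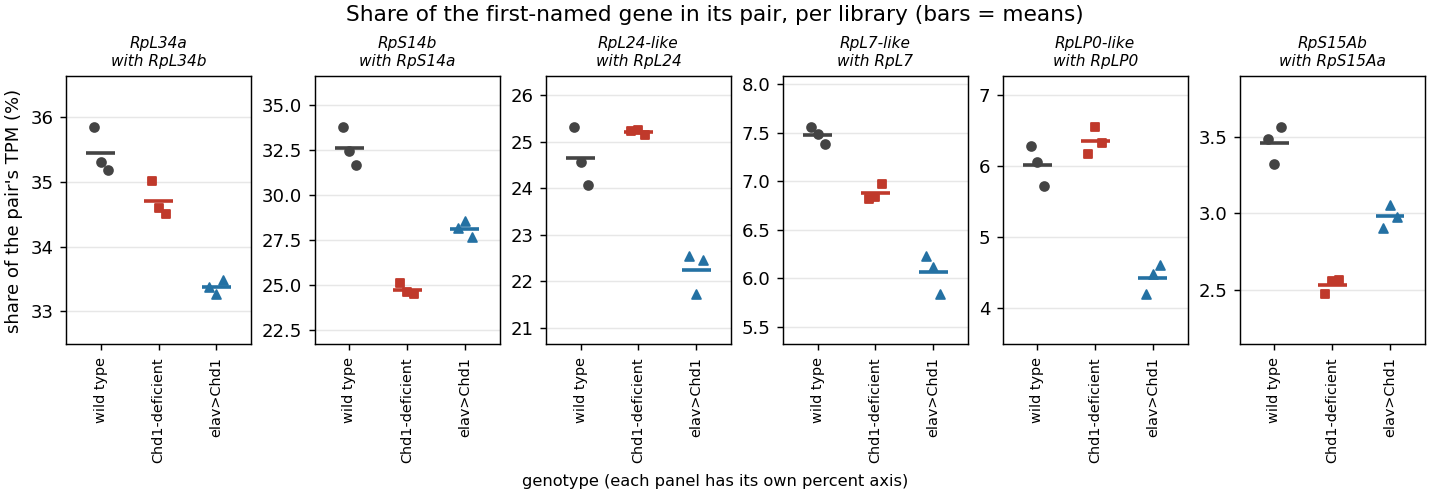
Share of the first-named gene in the summed TPM of its pair, in percent, with a separate axis range for each panel; points are libraries and bars are means of 3. RpS14b and RpS15Ab are lowest in the Chd1-deficient libraries (24.7% and 2.53% on average), and RpL24-like, RpL7-like and RpLP0-like are lowest in elav>Chd1.

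The 4 low copies RpL10Aa, RpL37b, RpL22-like and RpS10a held at most 0.142% of their pairs in any library. Their shares were highest in the Chd1-deficient libraries (exact permutation p = 0.0036, 0.0036, 0.0036 and 0.0321). For RpS10a the call was lost with a pseudocount of 0.1 (exact permutation p = 0.0714) and without the first or the second Chd1-deficient library (p = 0.0714 and 0.0679). RpS19b held 0.0543% ± 0.0066 of its pair there, compared with 0.0168% ± 0.0046 (wild type) and 0.0170% ± 0.0030 (elav>Chd1) (exact permutation p = 0.0357). RpS28-like and RpS28a did not pass the threshold (exact permutation p = 0.1107 and 0.1857). The abundant partners rose against wild type in both genotypes, among them RpL10Ab (0.24 and 0.38 in Chd1-deficient and elav>Chd1), RpL37a (0.21 and 0.29), RpS28b (0.18 and 0.17), RpS19a (0.19 and 0.12), RpL22 (0.14 and 0.26) and RpS10b (0.10 and 0.09), each called by limma, although RpS28b, RpS19a and RpS10b turned to -0.0007, -0.0526 and -0.0842 in elav>Chd1 under scaling to the summed ribosomal protein level.

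Among genes of the translation and ribosome assembly machinery, counts against wild type are read beside the shares of all genes, 42.9% higher and 46.0% lower in the Chd1-deficient and 30.6% and 47.3% in elav>Chd1 libraries. Of 40 tested translation initiation and elongation factors 7 were called higher and 27 lower in the Chd1-deficient against the wild-type libraries (median -0.18), and 2 higher and 27 lower in elav>Chd1 (median -0.23). Their summed level was 25686 to 26768 TPM in wild type, 21062 to 21501 TPM in the Chd1-deficient group and 24262 to 24431 TPM in elav>Chd1 libraries, without overlap. The largest changes were rises of eIF4E3 (0.193 ± 0.087 to 3.14 ± 0.444 TPM) and eIF4E5 (0.4997 ± 0.254 to 4.26 ± 0.492 TPM). Both are cap-binding proteins, and eIF4E3 is known from the fly testis. In elav>Chd1 they averaged 0.063 and 0.045 TPM, so both passed the filter on low values through their Chd1-deficient libraries. Their place among the 7 called higher therefore carries no weight. Of the 43 factors, 36 averaged at least 1 TPM in wild type, 40 in Chd1-deficient and 36 in elav>Chd1 libraries.

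Of 29 ribosome biogenesis factors 5 were called higher and 16 lower against wild type in the Chd1-deficient libraries (median -0.15), and 3 higher and 17 lower in elav>Chd1 (median -0.16, near the -0.15 of all genes). Tif-IA, an initiation factor of RNA polymerase I, fell from 164.9 ± 17.2 to 109.8 ± 3.58 TPM and stood at 104.9 ± 3.9 TPM in elav>Chd1. Rtf1, a transcription elongation factor that the list holds although it is better known from the Paf1 complex, fell from 77.8 ± 5.64 to 44.6 ± 1.43 TPM. Of 17 regulators of ribosomal protein genes and of the response to ribosome stress, 3 were called higher and 10 lower in the Chd1-deficient and 3 higher and 13 lower in elav>Chd1 libraries against wild type, beside the shares of all genes given above. Thor, the 4E-BP that represses cap-dependent translation under Tor, rose from 225.04 ± 9.74 to 509.1 ± 4.16 TPM and stood at 383.2 ± 13.7 TPM in elav>Chd1. Xrp1, a transcription factor induced in Minute cells of flies, rose from 46.04 ± 1.61 to 95.4 ± 1.47 TPM and stood at 80.97 ± 0.378 TPM in elav>Chd1. The 72 mitochondrial ribosomal protein genes summed to 8269 to 8362 TPM in wild type, 7527 to 7680.1 TPM in the Chd1-deficient group and 7137 to 7201 TPM in elav>Chd1 libraries, a falling order opposite to that of the group means of the cytosolic set.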

How the data were processed

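The authors deposited 1 TPM value per gene and library. Salmon and DESeq2 stand in the submitters' processing notes with no role or version, and no source used here names a build. The authors also deposited 2 comparison tables of part of the genes, from which log2 fold changes, adjusted p-values, standard errors (recorded as a score) and a mean signal (normalized counts) were taken. Symbols were joined to coordinates, exons and snoRNA genes of an Ensembl annotation of BDGP6 (dm6). TPM corrects for transcript length and fixes the library total, so depth is unknown and counting error cannot be given.

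The members, gene lists and alternatives were chosen with earlier results of these data known. Libraries were grouped by their labels. limma-trend was fitted to log2(TPM + 0.5) over all 9 libraries with 1 mean per genotype, for the 11094 genes that reached 1 TPM in 3 or more libraries, with Benjamini-Hochberg adjustment over these genes, a threshold of 0.05 and no further scaling. Pair ratios were tested with an exact permutation test of the F statistic over 3 genotypes, two-sided by construction. Named, apart from a few genes that are not reported here, are all paralogues, the 4 highest and 4 lowest main genes, the stalk, fusion and partner genes, the 5 largest called changes each way per comparison, Chd1, sta, Rack1 and 2 genes per other list; RpL7A, RpL12 and the 100 highest genes were looked at after the values were seen. The fit was tested on simulated data. Alternatives covered the filter, the groups in the fit, each library, the replicate block, scaling, the pseudocount and a fold threshold. Tools were limma 3.58.1 in R 4.3.3, and pandas 2.3.3, numpy 2.4.6 and matplotlib 3.10.9 in Python 3.11.15.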

Additional observations from a re-analysis of the deposited data

How the results depend on the processing

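Of 2421 values of 135 single-gene comparisons under alternatives, 2300 kept direction and side of the threshold, 71 lost and 42 gained a call and 8 reversed. Dividing each library by its summed ribosomal protein level, an alternative chosen after seeing the data that sets the pool equal by construction and moves the median of all genes from -0.15 to -0.30 in elav>Chd1 against wild type, gave 31 higher and 22 lower for Chd1-deficient against wild type (median 0.018), 30 and 19 against elav>Chd1 (median 0.0507) and 24 and 32 for elav>Chd1 against wild type (median -0.0300). The reversed values were those of elav>Chd1 against wild type for RpL15 (-0.0851), RpL40 (-0.0750), RpS27A (-0.0307), RpL24 (-0.0037), RpS28b (-0.0007), RpS10b (-0.0842), RpS14b (-0.0418) and RpS19a (-0.0526). Counting only called changes of 0.5 or more in size, the counts were 4 and 2, 3 and 1, and 0 and 0 in the same order of comparisons, 0 being set against 58 and 6 called by limma without that limit. Median-ratio scaling gave 8 higher for Chd1-deficient against elav>Chd1, 3 lower for elav>Chd1 against wild type, medians of 0.1351, -0.0585 and 0.1941 and a log2 ratio of the summed level of 0.2264 for elav>Chd1 against wild type. Without eggshell and ovary genes the medians against wild type were 0.1354 (Chd1-deficient) and 0.1575 (elav>Chd1). Leaving out 1 library gave medians of 0.0931 to 0.1418 for Chd1-deficient and 0.1166 to 0.1725 for elav>Chd1 against wild type. The causes of these shifts were not tested.

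For the pair ratios, given as the difference between Chd1-deficient and wild type, RpS10a lost its call with a pseudocount of 0.1 (2.1344, exact permutation p = 0.0714) and without the first or second Chd1-deficient library (0.8859 and 1.0933; over all single libraries left out 0.8683 to 1.2982). Without the first Chd1-deficient library RpS28a (0.9345) and RpS28-like (1.1476) gained one; the lowest values, 0.2462 and 0.4169, came without the third. Permuting within replicate number, the replicate block, ended the calls of RpS10a (1.0672, p = 0.0833), RpS19b (1.2450, p = 0.1111), RpL24-like (0.0435, p = 0.0556) and RpLP0-like (0.0818, p = 0.0556), all by exact permutation; a lost call there is no sign of a weaker effect. Same-numbered libraries were correlated at -0.155 to 0.108 in their deviations, so the numbers do not pair the samples; in limma the block gave 51 higher and 12 lower for Chd1-deficient against wild type. Promoter motifs and protein identities, planned as descriptions, were not run because no sequence was used here. TPM carry no depth, and the low copies rest on few reads.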
